A study of Mus musculus with 6 samples.

Results

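The genes described here are associated with cell quiescence and with the FoxO transcription factors, and their transcripts were followed in mGLUTag cells between 4 h and 16 h after synchronization. They are HBP1, KLHL24, YPEL3, CCNG2, TXNIP, PIK3IP1, SESN1, CDKN1B and FOXO1. All probes carrying one of these symbols were taken, with KLHL24 also listed in the array table under its older clone name 1110046J11RIK. This gave 22 probes for 9 genes, of 45281 probes for 28902 genes in all. The list was chosen with the measured difference between 4 h and 16 h already known for at least HBP1, YPEL3 and KLHL24. Its values for that contrast are therefore given as a description without a test. Gene symbols are written in capitals. GAS7, MXD4, MLXIP, MTOR, RICTOR, INSR and CIART stand for probes that the array table lists under older names, which RefSeq gives as synonyms.

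The mGLUTag line is an immortalized male murine line that serves as a model of the enteroendocrine L-cell, the source of glucagon-like peptide-1. Every culture was first kept in low serum, which brings about quiescence, was then exposed to forskolin, which raises cAMP, and was finally returned to full growth medium. RNA was taken at 4 h (n = 3) or 16 h (n = 3), and each of the 6 samples was measured on 1 array. There was no unsynchronized or non-starved group, so time since serum return and circadian phase cannot be told apart.

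Cells that lose growth factor signalling leave the cycle and enter a reversible resting state. When insulin and growth factors act through PI3K, the kinase AKT phosphorylates the FoxO factors and keeps them out of the nucleus. When this signal is low, FoxO factors enter the nucleus and activate genes of cell cycle arrest, autophagy, stress resistance and apoptosis. HBP1 is an HMG-box repressor of cell cycle genes, YPEL3 is a small growth-suppressive zinc-binding protein, and KLHL24 is a BTB-kelch adaptor of a ubiquitin ligase. CDKN1B is an inhibitor of cyclin-dependent kinases, CCNG2 is an unconventional cyclin linked to growth arrest, SESN1 restrains mTORC1, PIK3IP1 restrains PI3K, and TXNIP binds thioredoxin and limits glucose uptake.

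The deposited intensities were brighter at 4 h, with an overall mean of 322 units against 236 at 16 h. Each array was given a noise limit, an estimate of background scatter taken from its own values below 0, of 9.2 to 14 units. A probe is called detected here where at least 3 arrays exceeded it. Of the 14941 probes that exceeded it on every array, 270 (1.81%) had a higher mean intensity at 16 h, and the median ratio of 4 h over 16 h was 1.46. Values were therefore compared after quantile normalization, on a log2 scale, and each difference is relative to the other transcripts. Enteroendocrine markers were present, with 8 of 9 detected (PCSK1 was not). Of these, PAX6 was dim, at means of 17.4 units at 4 h and 9.53 at 16 h. The fibroblast markers COL3A1, DCN, PDGFRA and LUM and all 4 myeloid markers were not detected. COL1A1 was detected but dim, at means of 27.8 units at 4 h and 20.9 at 16 h.

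Of the 22 probes, 15 were detected, 14 of them on all 6 arrays. These 15 covered 8 of the 9 genes, since the only probe of PIK3IP1 exceeded the noise limit on no array and is given no difference. All 15 had a lower normalized mean at 4 h. For 8 of the 15 the 3 values at 4 h lay below the 3 values at 16 h, and for 0 they lay above. Among all 17366 detected probes, 5.33% were separated in the lower and 6.1% in the higher direction. Because the genes were picked on this contrast, nothing is read from the comparison of these shares. At their brightest probe HBP1, YPEL3 and KLHL24, known beforehand to differ, lay between -0.72 and -0.66, and the other 5 genes between -0.16 and -0.10. The dimmest detected probes of HBP1 and YPEL3 lay between these ranges, at -0.36 and -0.24.

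**Figure D1:**
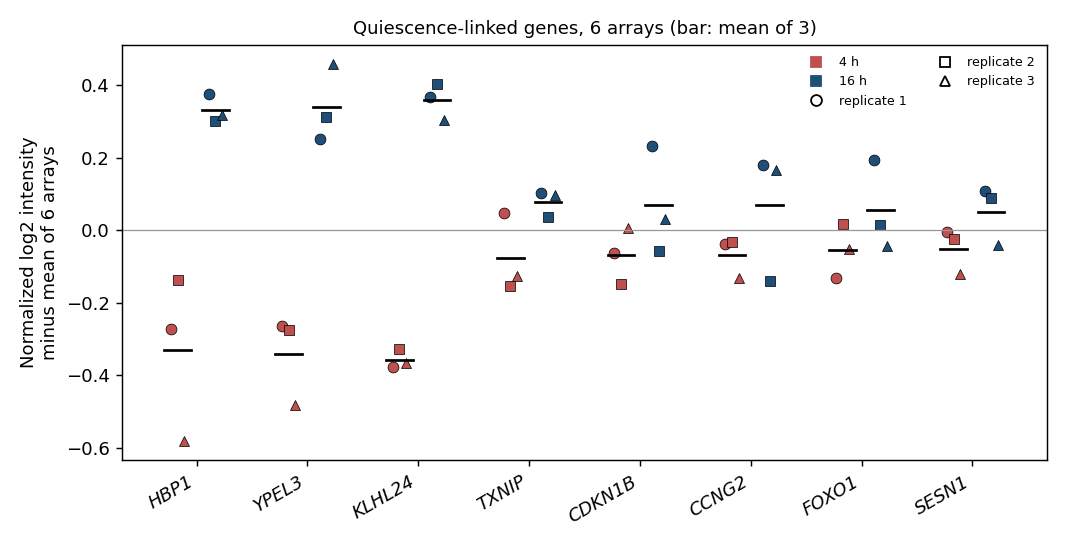
Normalized log2 intensity of the brightest probe of each gene on the 6 arrays, given as the distance from that probe's mean over the 6 arrays. Red symbols are 4 h, blue symbols are 16 h, the shape gives the replicate and the bar is the mean of 3 arrays. The time points are separated for HBP1, YPEL3 and KLHL24 and overlap at the plotted probe for TXNIP, CDKN1B, CCNG2, FOXO1 and SESN1.

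HBP1 was measured by 5 probes, of which 4 were detected and 1 (ILMN_1230323) was not. The brightest, ILMN_3020240, read 553.9, 490.7 and 425.8 units on the 4 h arrays and 604.5, 598.6 and 484.7 units on the 16 h arrays. These overlapped, and their ratio of 0.871 was well under the 1.46 of the median probe. After normalization the 4 h arrays read 8.95, 9.08 and 8.64 and the 16 h arrays 9.59, 9.52 and 9.54 (log2). All 4 h values were lower, the lowest being that of replicate 3, and the 16 h values lay close together. The log2 difference, 4 h minus 16 h, was -0.66 (SE 0.11, n = 3 per time point).

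The other bright HBP1 probes gave similar values. ILMN_1220230 averaged 8.57 ± 0.13 at 4 h against 9.27 ± 0.10 at 16 h (SD, n = 3 each), a log2 difference of -0.69. ILMN_2773012 was at 8.72 ± 0.19 and 9.40 ± 0.11, a log2 difference of -0.68. The dimmer ILMN_3092415 differed by -0.36, again without overlap. It was at -0.23 without 16 h replicate 1, and it turned to 0.014 with median scaling and to 0.10 without between-array normalization. Probes of one gene share their samples and are not replicates.

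YPEL3 gave 2893.3, 2409.2 and 2358.3 intensity units at 4 h against 2920.8, 3090.6 and 2961.1 at 16 h at ILMN_3132898. Its deposited values at 4 h were thus all lower although the 4 h arrays were the brighter ones. Normalized values were 11.21, 11.20 and 11.00 at 4 h against 11.73, 11.79 and 11.94 at 16 h, a log2 difference of -0.68 (SE 0.088). Its second probe, ILMN_2453076, was dim, at 22.7 ± 3.38 and 26.8 ± 0.306 units, and was also separated, with a log2 difference of -0.24. For this dim probe the value rested on the background step, at -0.38 with an offset of 16 in place of 50 and at -0.81 without background correction.

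KLHL24 was detected only through the probe listed as 1110046J11RIK (ILMN_2513451). Its intensities were 142.0, 108.0 and 133.8 at 4 h against 184.0, 195.9 and 142.5 at 16 h. Normalized values were 7.38, 7.43 and 7.40 at 4 h against 8.13, 8.17 and 8.07 at 16 h, and the 4 h values were the closest together among the 8 genes. The log2 difference was -0.72 (SE 0.065). Its size depended on the background step, at -0.85 with an offset of 16 and -1.01 without background correction. The 2 probes listed as KLHL24 itself, ILMN_2860242 and ILMN_2860244, exceeded the noise limit on 2 and 1 arrays, and no difference is given for them.

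In order of their difference, 3 of the 17366 detected probes lay lower than the KLHL24 probe, 6 lay lower than the bright YPEL3 probe, and 4, 7 and 9 lay lower than the leading HBP1 probes. These ranks rest on the difference by which HBP1, YPEL3 and KLHL24 were chosen and are a description. The counts for YPEL3 and HBP1 include probes of the same 3 genes. On the deposited scale, 6 of the 14 probes of the genes described here that exceeded the noise limit throughout had a higher mean at 16 h: 3 of HBP1, 2 of YPEL3 and 1 of KLHL24. The level of 18S ribosomal RNA probes, which differed between arrays, was highest on 4 h replicate 3, the array with the lowest values at the 3 bright HBP1 probes and the bright YPEL3 probe. The dimmer detected probe of each gene was lowest on another array. With arrays of high and low 18S as a block, the log2 differences were -0.62 for HBP1, -0.64 for YPEL3 and -0.71 for KLHL24. With each array left out in turn they lay between -0.76 and -0.53, between -0.72 and -0.62, and between -0.75 and -0.70.

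CDKN1B and CCNG2 differed less. CDKN1B had 1 of 3 probes detected (ILMN_2638428), with normalized values of 7.01, 6.93 and 7.08 at 4 h against 7.31, 7.02 and 7.11 at 16 h. Replicate 2 at 16 h fell among the 4 h values, and the log2 difference was -0.14 (SE 0.089). CCNG2 (ILMN_2700233) was dim, with values of 6.45, 6.45 and 6.35 at 4 h against 6.67, 6.35 and 6.65 at 16 h. Here 16 h replicate 2 was the lowest of the 6 arrays, just under the 4 h values, and the log2 difference was -0.14 (SE 0.096). Without background correction it was -0.40, and that of CDKN1B -0.25. Both moved with single arrays: without 16 h replicate 1 they were -0.056 for CDKN1B and -0.081 for CCNG2, and without 16 h replicate 2 they were -0.20 and -0.25. Without 16 h replicate 3 that of CCNG2 was -0.090.

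FOXO1 itself was dim, with 1 of 2 probes detected (ILMN_2656498). It was at 6.57, 6.72 and 6.65 at 4 h against 6.90, 6.72 and 6.66 at 16 h, so that only 16 h replicate 1 stood above the 4 h arrays, and the log2 difference was -0.11 (SE 0.083). It was -0.042 without 16 h replicate 1, -0.071 without 4 h replicate 1 and -0.27 without background correction. SESN1 was measured by a pair of bright probes and a dim one. The bright ILMN_2654074 had values of 9.24, 9.22 and 9.12 at 4 h against 9.35, 9.33 and 9.20 at 16 h, a log2 difference of -0.10 (SE 0.073), which was -0.066 without 4 h replicate 3 and -0.15 without 16 h replicate 3. ILMN_3136744 differed by -0.12 and was separated, with 9.11, 8.99 and 9.09 at 4 h against 9.19, 9.21 and 9.15 at 16 h. The dim ILMN_3059476 differed by -0.02, which lay between -0.13 without 16 h replicate 2 and 0.036 without 16 h replicate 1. The intensity ratios of 1.33 for both bright probes lay close to the 1.46 of the median probe.

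TXNIP read 981.5, 682.9 and 853.4 units on the 4 h arrays and 690.3, 692.2 and 572.4 units on the 16 h arrays at ILMN_1213609. Normalized values were 9.71, 9.51 and 9.54 at 4 h against 9.77, 9.70 and 9.76 at 16 h, and only 4 h replicate 1 reached the 16 h range. The log2 difference was -0.16 (SE 0.076), and -0.09 at its other probe, ILMN_3112873. With each array left out in turn the former lay between -0.22 and -0.12, and the latter between -0.14 without 4 h replicate 1 and -0.027 without 4 h replicate 3. Without between-array normalization TXNIP, CDKN1B, CCNG2, FOXO1 and SESN1 all had a higher mean at 4 h, with log2 differences between 0.086 and 0.38, while the brightest probes of HBP1, YPEL3 and KLHL24 remained lower at -0.17, -0.23 and -0.29. The median of detected probes was 0.36 on that scale, and among the brightest probes of the 8 genes only that of SESN1 lay above it.

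**Figure D2:**
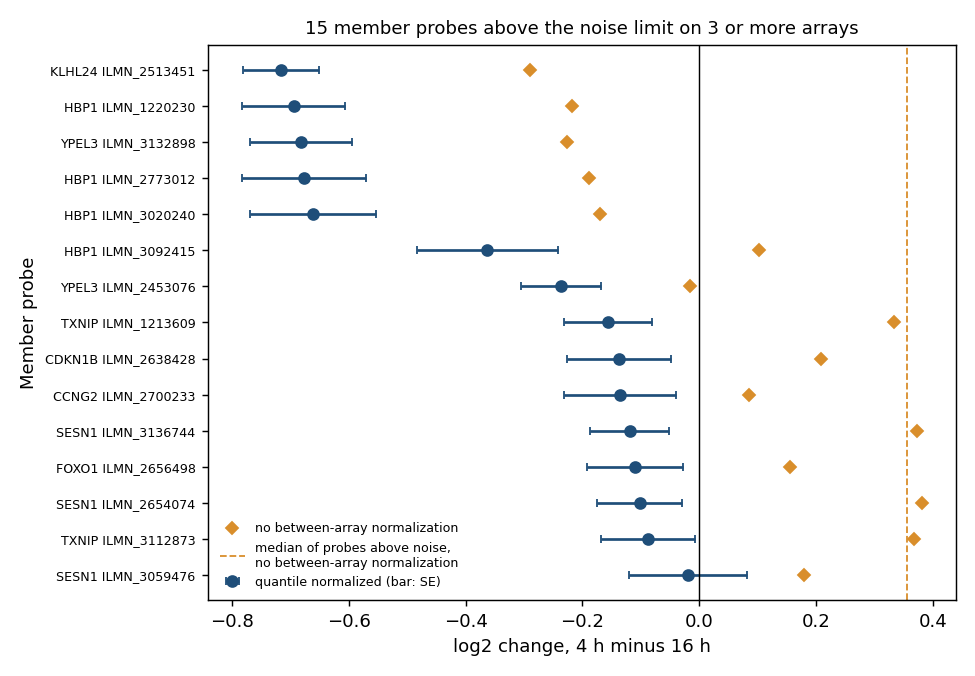
Log2 difference, 4 h minus 16 h, of the 15 detected probes of these genes. Blue points are quantile-normalized values with their SE, orange diamonds are the same probes without between-array normalization, and the dashed line at 0.36 is the median of detected probes on that second scale. Blue points run from -0.72 to -0.02, and the diamonds of HBP1, YPEL3 and KLHL24 at their brightest probes stay below 0.

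The likeness of profiles was measured as the root mean square distance, in log2 units over the 6 arrays, from the mean profile of HBP1, YPEL3 and KLHL24 after each gene was centred on its own mean. The profile was -0.31, -0.25 and -0.48 on the 4 h arrays and 0.33, 0.34 and 0.36 on the 16 h arrays. Of 10398 genes above noise on every array, 8.67% lay nearer to it than TXNIP, 12.9% nearer than CCNG2, 14.1% nearer than SESN1, 16.7% nearer than FOXO1 and 17.6% nearer than CDKN1B. The 5 nearest genes outside the list were UPP1 (distance 0.054), WFDC12 (0.097), CIART (0.098), CLDN23 (0.11) and MOSPD1 (0.11). UPP1 encodes uridine phosphorylase and CIART a repressor of the circadian clock. The log2 difference of UPP1 was -0.68 (SE 0.099). This distance rests on the contrast of time points that also chose HBP1, YPEL3 and KLHL24, and it is a description over 6 arrays.

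To place the genes beside the promoters of the reference, windows of 300 bases (250 before to 50 after each gene's start) were read from a set made from RefSeq (GRCm38.p6). The set used here held a window for 8 of the 9 genes. KLHL24 had none in this set, so the counts below say nothing of it. The windows were searched on both strands for the forkhead motif GTAAACA, the E-box CACGTG, the cAMP response element TGACGTCA, its half-site TGACG, which the full element contains, and the D-box TTATGTAA. These 8 genes had 9 windows. GTAAACA was present in 4 of the 9 windows, 1 each of HBP1, TXNIP, YPEL3 and SESN1, and in 3.65% of all 32851 windows. Among 29 windows of the FoxO target genes described below it was present in 4, and CACGTG in 5. CACGTG, TGACGTCA and TTATGTAA were present in 0 of the 9, and in 7.15%, 1.79% and 0.938% of all windows. TGACG was present in 3 of the 9 (CDKN1B, SESN1 and YPEL3) and in 20.8% of all. A match is a description of letters and not a site of binding.

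The matches to GTAAACA are shown with 10 bases on either side, 5′ to 3′ on the gene's strand, with the motif in capitals (for SESN1 its reverse complement), because they are what the 4 windows share.
HBP1, chr12:31950378-31950404, minus strand, 149 bases before the start: accttctccaGTAAACAcaagagaaaa
TXNIP, chr3:96557826-96557852, plus strand, 121 bases before the start: tggaggcctgGTAAACAagggccaagt
YPEL3, chr7:126776978-126777004, plus strand, at base 26 after the start: tggtctcggtGTAAACAagtcgaggcg
SESN1, chr10:41810586-41810612, plus strand, at base 23 after the start: aaccttctacTGTTTACcagccttttg

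The upstream bases of HBP1 and TXNIP are shown whole, since their match lies before the start. The difference at the brightest probe was larger for HBP1 than for TXNIP. The 250 bases hold 52.4% G and C for HBP1 and 66.8% for TXNIP, against a median of 52.4% over all windows.
HBP1, chr12:31950246-31950495, minus strand: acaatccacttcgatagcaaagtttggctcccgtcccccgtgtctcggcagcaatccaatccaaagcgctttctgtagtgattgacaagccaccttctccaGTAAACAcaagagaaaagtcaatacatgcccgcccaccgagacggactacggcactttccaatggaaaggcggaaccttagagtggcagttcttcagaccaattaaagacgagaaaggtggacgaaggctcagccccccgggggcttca
TXNIP, chr3:96557707-96557956, plus strand: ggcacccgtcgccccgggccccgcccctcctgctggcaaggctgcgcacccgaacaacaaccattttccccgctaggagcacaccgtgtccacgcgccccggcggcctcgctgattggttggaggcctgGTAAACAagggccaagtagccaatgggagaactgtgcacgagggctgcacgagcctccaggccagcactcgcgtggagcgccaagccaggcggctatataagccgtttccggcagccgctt

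To ask whether further FoxO-linked and growth-arrest genes lay with HBP1, YPEL3 and KLHL24, 105 genes in 5 lists were then read from the fit across all probes, none of them a member. The lists were drawn up with earlier results of these data known, so the counts below describe them and are not independent support. A total of 77 were detected. In limma, with Benjamini-Hochberg adjustment across all 45281 probes, 0 of the 77 passed the threshold of 0.05 in either direction, where 0.00442% of all probes passed as lower and 0.00442% as higher. At an unadjusted p under 0.05 there were 11 lower and 7 higher, where 5.37% of all 11730 detected genes were lower and 5.88% higher. These 2 counts moved with the processing. They were 6 and 6 with a filter at the noise limit, 1 and 37 with median scaling, and 0 and 44 without between-array normalization. Without 4 h replicate 2 they were 7 and 7, and without 16 h replicate 1 they were 15 and 5. As 0 of the 77 passed after adjustment, the values below are differences that did not pass.

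FoxO target genes had the lowest median of the 5 lists. Of 27 genes, 16 were detected, and 14 of these 16 (87.5%) were lower at 4 h, with a median log2 difference of -0.16, while 50% of all detected genes were lower, with a median of 0.0002. At an unadjusted p under 0.05 there were 7 lower and 0 higher. Values of the time points were separated for 8 of the 16 in the lower and 0 in the higher direction, against 5.85% and 6.52% of all detected genes. With each array left out in turn, between 12 and 14 of the 16 were lower. Without between-array normalization 2 of the 16 were lower than 0 and 13 lay below the median of detected probes, and the list median minus that of detected probes was -0.10. Since the list was chosen with earlier results of these data known, nothing is read from the comparison of these shares. No test of the list as a whole was made.

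The FoxO target with the smallest p was GABARAPL1, which encodes an autophagosome protein of the ATG8 family. It read 391.6, 365.3 and 443.5 units on the 4 h arrays and 471.5, 448.7 and 419.5 units on the 16 h arrays, a ratio of 0.896. Normalized values were 8.51, 8.74 and 8.68 at 4 h against 9.26, 9.14 and 9.35 at 16 h, with no overlap. The log2 difference was -0.61 (SE 0.087, limma adjusted p = 0.156), close in size to that of HBP1. ULK1, the kinase that starts autophagy, had values of 7.16, 7.21 and 7.17 at 4 h against 7.53, 7.53 and 7.69 at 16 h. Its log2 difference was -0.40 (SE 0.072, limma adjusted p = 0.244), and a second probe differed by -0.22 with overlap.

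The other targets with an unadjusted p under 0.05 were named after their values had been seen. MAP1LC3B, a second ATG8-family gene, had values of 8.18, 8.17 and 7.75 at 4 h against 8.26, 8.63 and 8.50 at 16 h, a log2 difference of -0.43 (SE 0.14). BBC3, a pro-apoptotic BH3-only gene, differed by -0.32 (SE 0.092), and a second probe by -0.20. RICTOR, a subunit of mTORC2, differed by -0.23, and MXI1, an antagonist of MYC, by -0.16. INSR, the insulin receptor, differed by -0.21, and its second detected probe by -0.13 (SE 0.15) with overlap. The values of RICTOR and INSR come from probes under older clone names, and no probe listed as INSR itself was detected. All 5 had limma adjusted p of 0.655 or more.

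**Figure D3:**
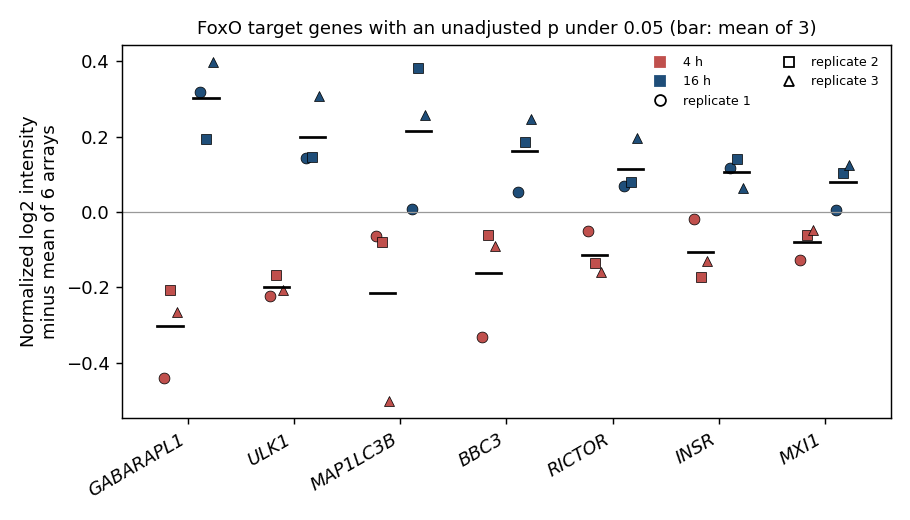
Normalized log2 intensity of 7 FoxO target genes on the 6 arrays, as the distance from each gene's mean, with 4 h in red, 16 h in blue, the replicate as the shape and the mean of 3 arrays as a bar. These 7 were picked for an unadjusted p under 0.05, and none passed after adjustment. GABARAPL1 has the widest distance between the means, a log2 difference of -0.61.

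Not all FoxO targets lay low. EIF4EBP1, a brake on translation, differed by 0.24 (SE 0.18, limma adjusted p = 0.954) and CAT, which encodes catalase, by 0.13 (SE 0.10, limma adjusted p = 0.958). SOD2 and BCL6 differed by -0.07 and -0.04, less than their SE. The 3 detected probes of BCL2L11 disagreed, at -0.14, -0.0005 and 0.20. Further targets such as PCK1, G6PC, PDK4, KLF2 and SESN3 did not reach the noise limit on 3 arrays.

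Growth-arrest genes as a wider list were divided in direction. Of 25 genes 19 were detected, with 10 lower and 9 higher and a median log2 difference of -0.03. At an unadjusted p under 0.05 there were 4 lower and 2 higher, and the time points were separated for 3 in the lower and 1 in the higher direction. Of all detected genes 5.37% and 5.88% had such a p, and 5.85% and 6.52% were separated. Without between-array normalization 2 of the 19 were lower than 0 and 10 lay below the median of detected probes. The difference from the FoxO list was not tested. GAS7 differed by -0.28 (SE 0.075, limma adjusted p = 0.583) and MXD4, a MYC antagonist, by -0.24 (SE 0.087, limma adjusted p = 0.831). CDKN2B and CDKN2D, both inhibitors of the cyclin D kinases, differed by 0.36 and 0.17, in the other direction. CDKN1A, the inhibitor most closely related in role to CDKN1B, differed by -0.16 (SE 0.16). The median was 0.0025 without 4 h replicate 1 and -0.10 without 4 h replicate 3.

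Relatives of the listed genes were divided too. Of the 14 detected, 7 were lower and 7 higher, with a median log2 difference of -0.0037, which lay between -0.05 without 4 h replicate 3 and 0.02 without 16 h replicate 1. Without between-array normalization 0 of the 14 were lower than 0 and 10 lay below the median of detected probes. For YPEL1, a paralog of YPEL3, all 4 h values lay below all 16 h values (log2 difference -0.24, SE 0.078, limma adjusted p = 0.761), and YPEL5 differed by -0.22 (SE 0.18) with overlap. CCNG1, the paralog of CCNG2, lay higher at 4 h, at 9.08, 9.31 and 8.98 at 4 h against 8.60, 8.67 and 8.85 at 16 h. Its log2 difference was 0.41 (SE 0.10, limma adjusted p = 0.504), against -0.14 for CCNG2. ARRDC4, an arrestin-domain relative of TXNIP that answers to the same glucose-sensing factors, differed by 0.22 (SE 0.066, limma adjusted p = 0.688), against -0.16 for TXNIP. These pairs are set side by side, and the difference between paralogs was not tested. The genes for those factors, MLXIP, MLX and MLXIPL, differed by -0.03, -0.13 and 0.03, and the SESN1 relative SESN2 by -0.03.

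The list of PI3K, AKT and FoxO factors also held TSC1, TSC2, RHEB and MTOR. Of its 22 genes 16 were detected, with 7 lower and 9 higher and a median log2 difference of 0.01. This median was -0.04 without 4 h replicate 2, -0.02 without 4 h replicate 1 and 0.07 without 4 h replicate 3. Without between-array normalization 0 of the 16 were lower than 0 and 6 lay below the median of detected probes. PIK3R3, a regulatory subunit of PI3K, differed by 0.36 (SE 0.074, limma adjusted p = 0.363). SGK1, a kinase that phosphorylates FoxO factors and is induced by serum, differed by 0.35 (SE 0.075, limma adjusted p = 0.376). For both, all 4 h values lay above all 16 h values. PIK3R2 differed by -0.22 (SE 0.11). FOXO3 differed by 0.02 (SE 0.076), and FOXO4 and FOXO6 did not reach the noise limit on 3 arrays.

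Cell cycle entry genes were divided as well. Of 20 genes 15 were detected, with 8 lower and 7 higher and a median log2 difference of -0.0037. The median was -0.07 without 4 h replicate 3, -0.05 without 4 h replicate 1, -0.03 without 16 h replicate 2 and 0.01 without 4 h replicate 2. Without between-array normalization 5 of the 15 lay below the median of detected probes, and the list median minus it was 0.13. ODC1, the first enzyme of polyamine synthesis and a target of MYC, differed by 0.38 (SE 0.10, limma adjusted p = 0.561) and MYBL2 by 0.17. MCM2 and E2F1 differed by -0.27 and -0.14, with errors of 0.16 and 0.088. SKP2, part of the ubiquitin ligase that marks CDKN1B for destruction, differed by -0.08 (SE 0.11). MYC, CCND1 and CCND2 did not reach the noise limit on 3 arrays.

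**Figure D4:**
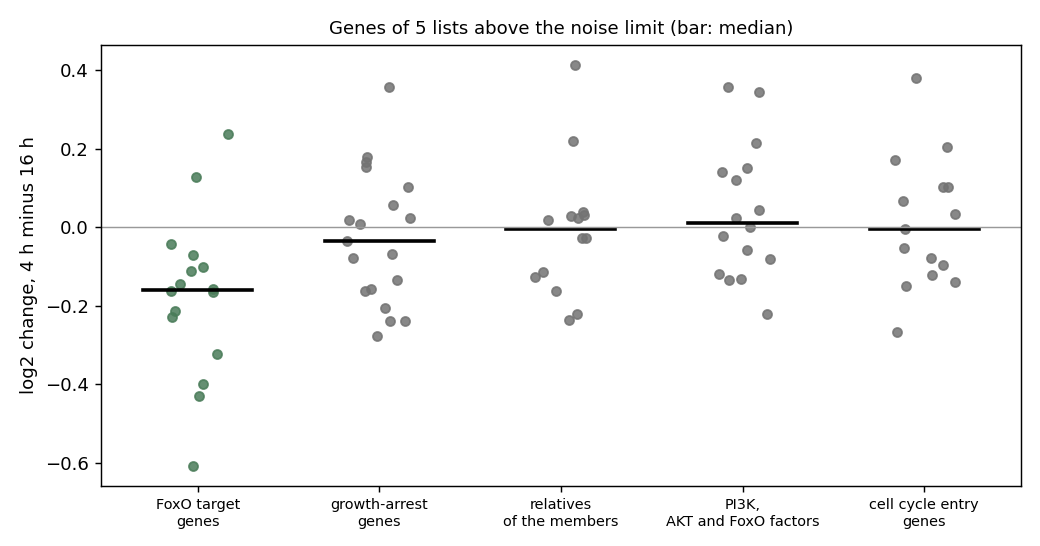
Log2 difference, 4 h minus 16 h, of the detected genes in 5 lists, 1 point per gene at its brightest probe, with the median as a bar. The median is -0.16 for FoxO target genes and lies between -0.03 and 0.01 for the other lists. A few genes stand in more than 1 list.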

How the data were processed

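Total RNA of 6 mGLUTag samples was hybridized to mouse WG-6 V2 Illumina BeadChips. The deposited table holds linear intensity values from which background had been subtracted, so that 31.2% to 34.0% of an array's values lie below 0, and the authors did not normalize them between arrays. Scanner settings, slides and detection p-values are not given in the sources used here, and nothing says whether samples came from separate cultures, so p-values measure only the spread between these samples.

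In R 4.3.3 with limma 3.58.1, normexp (offset 50) was applied to the intensities, followed by quantile normalization and log2. A model with time point alone was fitted over all probes (two-sided, Benjamini-Hochberg, threshold 0.05). The SE is that of limma. An array's noise limit was percentile 99 of the size of its negative values. The probe with the highest mean stood for each gene, and names were matched to RefSeq (GRCm38.p6) by symbol or unique synonym for 79.0% of probes. The fit was tested on simulated data.

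Members and lists were chosen with earlier results of these data known. The rule for named genes took every member, the 2 list genes with the smallest p in each direction, and the 5 genes nearest in profile; list genes named beyond these were chosen after their values were seen, and the values of 1 list gene are not reported here. Alternatives covered background, offset, between-array normalization, filters, variance model, array weights, blocks, probe averaging and leaving out each array. Arrays carry no counts, so their number limits the precision.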

Additional observations from a re-analysis of the deposited data

How the results depend on the processing

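Under most alternatives the 8 measured member genes stayed lower at 4 h. The filters on dim probes, the variance model and the replicate block leave each difference unchanged, so the count in these settings adds nothing. The count was 8 in every setting run except median scaling (4) and no between-array normalization (3), which keep the brightness of the 4 h arrays in the values: the median of detected probes was then 0.27 and 0.36, and 7 of the 8 genes lay below it in both. In these same settings 9 and 15 of the 77 listed genes passed as higher, and 0 as lower, and in all other settings 0 passed in limma. Among all probes, 2 higher and 2 lower passed. This became 19 higher and 10 lower without background correction, 832 and 0 with median scaling, 2308 and 0 with no between-array normalization, 0 higher with cyclic loess, 1 and 0 with trend and robust variance, and 0 and 0 with an offset of 16 and with either filter on dim probes. Leaving out any 1 array gave between 0 and 0 in both directions (1849 to 3219 probes had an unadjusted p under 0.05). Apart from what the settings themselves construct, the cause was not tested.

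The sources used here do not say whether replicate numbers pair the samples, and deviations of same-numbered arrays correlated at 0.25, 0.17 and -0.49. With a replicate block, 0 probes passed as higher and 0 as lower (2489 at an unadjusted p under 0.05), and 0 listed genes passed. The block leaves each difference unchanged, so the 8 member genes were lower as before.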
